A study of Mus musculus with 2 samples.

Results

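Mir378a, Mir455, Mir193b and Mir365-1 are microRNA genes tied to mitochondrial metabolism and brown fat, and these 4 of the 2202 microRNA genes in the count tables are described here. They were taken by symbol from a list of members that sets no threshold on a measured value, although it was drawn up with earlier results of these data known. MicroRNA-seq had been run on total RNA from the adrenal glands of 2 female mice of the hybrid strain B6CASTF1/J, aged 10 days and obtained from The Jackson Laboratory. The libraries are labelled as biological replicates 1 and 2, each sequenced as 1 technical replicate, and the labels give the animals the numbers 3 and 4. No treatment or engineered allele is named. A single donor entry is given for both libraries, and only the replicate and animal numbers mark them as separate animals. Both samples form 1 group, and the data answer how abundant each gene was in the gland and how far the libraries differed.

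MicroRNAs are short RNAs cut from hairpin precursors. Each loads into an Argonaute protein and represses messenger RNAs that pair with its seed, bases 2 to 8 of the mature strand. Mir378a sits inside the gene of the coactivator PGC-1beta and is processed from its transcript, which places it beside a regulator of mitochondrial biogenesis. Mir193b and Mir365-1 are a cluster linked to the brown fat lineage, and Mir455 has been linked to brown fat commitment and, through its collagen host gene, to cartilage. The adrenal cortex is rich in mitochondria because steroid synthesis begins inside them, and brown fat lies close to the gland in young mice. In RNA from whole tissue, cells of both kinds can contribute, and fewer cells of a type cannot be told apart from less RNA per cell.

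The mature sequences of 3 members are shown because they decide which reads a gene-level count can hold. Mir193a and Mir365-2, the related genes on chromosome 11, are printed with them. All are from RefSeq on GRCm38.p6, 5′ to 3′, with the seed in capitals.
miR-455-5p: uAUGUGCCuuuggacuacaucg
miR-455-3p: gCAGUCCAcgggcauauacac
miR-193b-5p: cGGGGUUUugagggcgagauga
miR-193b-3p: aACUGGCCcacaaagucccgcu
miR-193a-3p: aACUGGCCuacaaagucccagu
miR-365-1-5p: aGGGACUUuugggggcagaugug
miR-365-2-5p: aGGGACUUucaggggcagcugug
miR-365-3p: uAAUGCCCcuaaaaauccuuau

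The 3p strands of Mir193b and Mir193a shared the seed ACUGGCC and were identical at 19 of 22 positions. Counted from 1 at the 5′ end, miR-193a-3p differed from miR-193b-3p by C9U, G20A and C21G. The 5p strands of Mir365-1 and Mir365-2 shared the seed GGGACUU and differed by U10C, G11A and A19C. The strand miR-365-3p was the same in both hairpins, letter for letter. No other mature sequence in the table had the seed CAGUCCA of miR-455-3p. The seed AUGUGCC of miR-455-5p was also found in miR-5129-3p, whose gene Mir5129 had 1 count in replicate 1 and 10 in replicate 2.

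The shared strand matters because reads that aligned to several places were left out of the deposited gene counts. The hairpins are shown with both mature arms in capitals, so that the common stretch around the 3p arm can be seen.
Mir365-1: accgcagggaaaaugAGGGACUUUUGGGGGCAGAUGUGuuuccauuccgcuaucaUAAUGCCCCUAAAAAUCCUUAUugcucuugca
Mir365-2: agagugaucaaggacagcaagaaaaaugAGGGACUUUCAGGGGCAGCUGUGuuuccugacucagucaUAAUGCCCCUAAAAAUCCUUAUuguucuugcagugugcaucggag

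Of the 66 windows of 22 bases in the Mir365-1 hairpin, 6 also occurred in Mir365-2, and together they covered bases 53 to 79, a stretch of 27 bases. The miR-365-3p arm occupies bases 56 to 77 of Mir365-1 and lies within that stretch. The Mir193b hairpin, with 58 windows, and the Mir193a hairpin, with 45, had none in common with any other hairpin in the table, chromosome 18 left out. A full-length miR-365-3p read thus aligns to both loci, whereas reads of either Mir193b arm match no other hairpin in that table. The counts of Mir365-1 and Mir365-2 are therefore uncertain and give no total for miR-365.

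**Figure D1:**
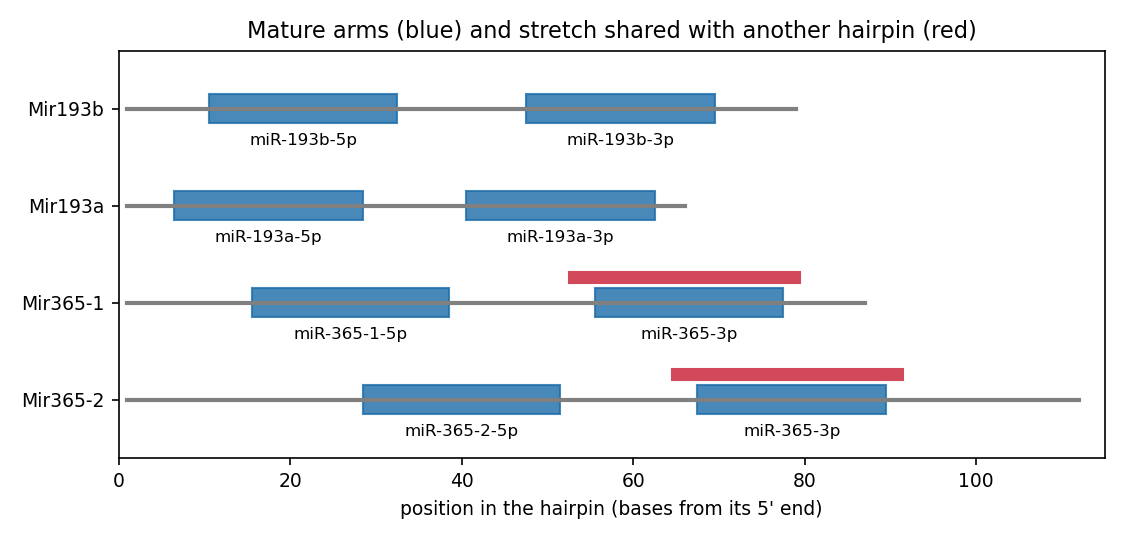
Hairpins of Mir193b, Mir193a, Mir365-1 and Mir365-2 drawn to scale, with the position in bases from the 5′ end on the horizontal axis. Blue boxes are the mature arms and red bars mark the stretch of 27 bases present in both Mir365-1 and Mir365-2, which contains the miR-365-3p arm; Mir193b and Mir193a have no such stretch.

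The sequencing depth was 5278986 reads in replicate 1 and 8555429 in replicate 2, and 38.3% and 37.5% of them fell on the sense strand of a microRNA gene. Levels are given in CPM, the count of a gene per 1000000 of these assigned reads, and 1 read was worth 0.494 and 0.312 CPM. All 4 members reached 10 CPM in both libraries, as did 302 genes in all. MicroRNAs of neuroendocrine cells, which form the adrenal medulla, were present, led by Mir375 at 24805 and 31924 CPM. No microRNA serves here as a defining marker of adrenal cortex, and messenger RNAs of steroid synthesis or brown fat were not measured.

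The members spanned more than 3 orders of magnitude, and their order was the same in both libraries: Mir378a, Mir455, Mir193b, Mir365-1. Together they took 9.91% of the assigned reads in replicate 1 and 12.5% in replicate 2, a mean of 11.2% ± 1.85 (SD, n = 2). Mir378a alone supplied 95.5% and 96.2% of the members' reads. The other 3 genes took 0.449% and 0.476% of the assigned reads. No neighbours in the order overlapped in level. Mir378a exceeded Mir455 by 26.7-fold and 31.6-fold, Mir455 exceeded Mir193b by 3.83-fold and 4.16-fold, and Mir193b exceeded Mir365-1 by 36.7-fold and 32.0-fold, the last of these set against an uncertain count. A microRNA read spans a mature strand whatever the hairpin's length, and per 100 bases of hairpin the order was also kept, at 143411 and 182740 CPM for Mir378a, 4322 and 4653 for Mir455, 1170 and 1162 for Mir193b, and 28.97 and 32.96 for Mir365-1.

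**Figure D2:**
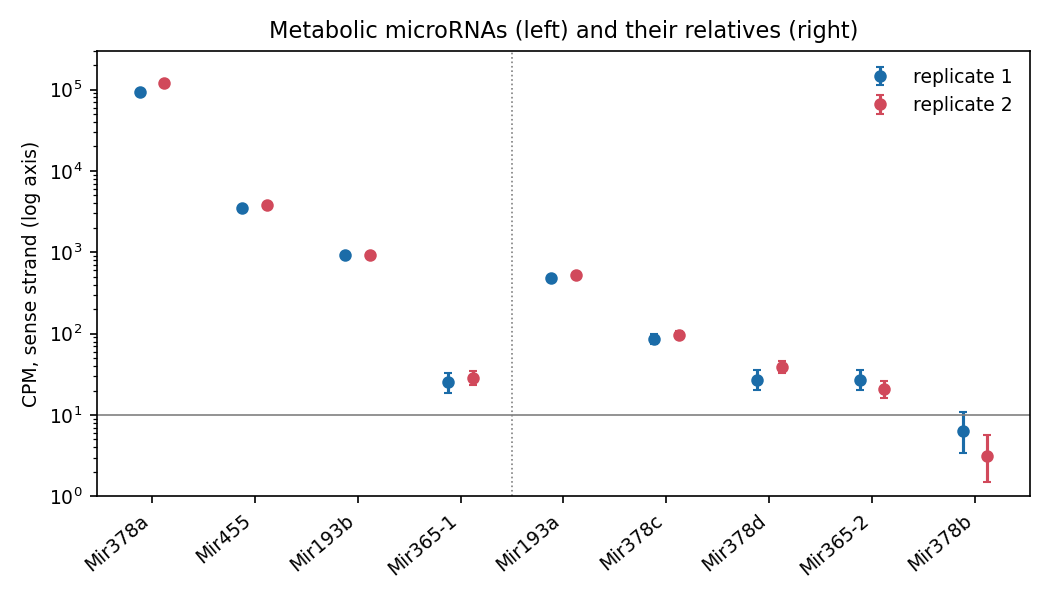
CPM on the sense strand (log axis) of the 4 metabolic microRNAs and of their 5 relatives in replicates 1 and 2. Points are single libraries, bars are exact 95% intervals of counting error and the horizontal line is 10 CPM. Mir378a stands at 94651 and 120608 CPM, and Mir378b is the one gene whose points lie below the line.

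Mir378a, the microRNA of the Ppargc1b gene, was counted 191518 times in replicate 1 and 387010 times in replicate 2. These counts are 94651 and 120608 CPM, or 9.47% (exact Clopper-Pearson 95% interval 9.42 to 9.51%) and 12.1% (12.03 to 12.10%) of the assigned reads. It ranked 2 in replicate 1, behind the endothelial Mir126a, and 1 in replicate 2. With Mir126a taken out of the totals, Mir378a held 11.5% and 12.7% and ranked 1 in both libraries. Counted against assigned and multiply aligned reads together, it held 5.73% and 6.99%. Mir126a itself had 177728 CPM in replicate 1 against 47927 in replicate 2, and its part in the difference of Mir378a was otherwise not tested.

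Mir378a lies on the minus strand of chromosome 18, positions 61397835 to 61397900 of mm10, inside an intron of Ppargc1b, 2531 bases from the annotated start of that gene. None of the 3 Ppargc1b transcripts that span it has an exon there. Gm25301, an annotated microRNA gene of 113 bases on the plus strand, covers the whole Mir378a hairpin. Gm25301 had no sense-strand read in either library, and its opposite-strand column held 191518 and 387011 reads, which matches the Mir378a counts to within 1 read. Irrespective of strand, Mir378a was listed at 0 in both libraries, and its reads made up 30.8% and 58.0% of all reads set aside there as ambiguous. The level of Mir378a thus rests on the strand-specific column. No read of the other 3 members fell on the opposite strand, and their counts were equal in the sense column and in the column irrespective of strand.

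Mir378b, Mir378c and Mir378d are annotated relatives of Mir378a at other loci. Mir378c, on chromosome 14 opposite to Samd4, had 86.0 and 97.5 CPM. Mir378d on chromosome 10 had 27.2 and 39.0 CPM, and Mir378b on chromosome 11, opposite to Msi2, had 6.42 and 3.12 CPM. Mir378a reads outnumbered those of Mir378c, the highest of the relatives, by 1101 to 1 and 1236 to 1. The sequences of Mir378a and these relatives were not compared, so how far shared reads affect their counts was not tested.

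**Figure D3:**
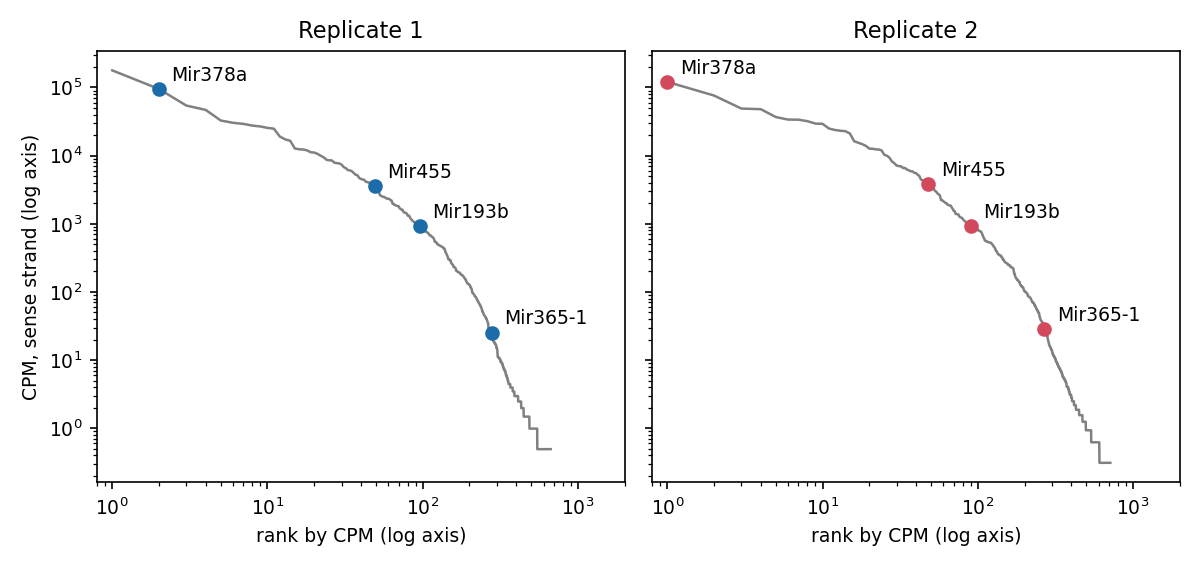
CPM on the sense strand against rank, both on log axes, for all genes with a read in replicate 1 (left panel) and replicate 2 (right panel). The line joins all genes and the points are the 4 metabolic microRNAs. Mir378a is at rank 2 and rank 1, Mir455 at 49 and 48, Mir193b at 96 and 90, and Mir365-1 at 278 and 269, where the curve falls steeply.

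Mir455 was counted 7171 and 12243 times, equal to 3544 and 3815 CPM, a mean of 3680 ± 192 (SD, n = 2). It ranked 49 and 48. The gene lies at positions 63256851 to 63256932 of chromosome 4 on the plus strand, in an intron of Col27a1, which encodes a fibrillar collagen of cartilage. It starts 42847 bases into Col27a1, and none of the 4 transcripts that span it has an exon there. Mir140, a microRNA known from cartilage, stood at 527 and 6072 CPM, so the values of the libraries were much further apart for Mir140 than for Mir455.

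Mir193b had the steadiest level of the members, with 1871 and 2946 counts, or 925 and 918 CPM, a mean of 921 ± 4.65 (SD, n = 2). Its ranks were 96 and 90. It lies at positions 13449523 to 13449601 of chromosome 16 on the plus strand, and Mir365-1 lies at positions 13453840 to 13453926 of the same strand, 4238 bases further on. Both fall within introns of Gm15738, a noncoding gene on the opposite strand, and overlap no gene on their own strand. Mir365-1 was counted 51 and 92 times, which is 25.2 CPM (exact 95% interval of its share 0.00188 to 0.00331%) and 28.7 CPM (0.00231 to 0.00352%), a mean of 26.9 ± 2.45 (SD, n = 2).

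The cluster partners thus stood 36.7 to 1 in replicate 1 and 32.0 to 1 in replicate 2. The log2 difference between these ratios was -0.20, and its exact 95% interval of -0.73 to 0.32 includes no change as well as differences of over 0.5 log2 units. The second cluster, Mir193a and Mir365-2 on chromosome 11 with 14365 bases between them, had the same make-up. Mir193a was counted at 476 and 526 CPM and Mir365-2 at 27.2 and 20.9 CPM, a ratio of 17.5 to 1 and 25.2 to 1. In both clusters the gene with an arm common to both loci was the low partner.

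Between loci, Mir193b took 66.0% (64.2 to 67.7%) and 63.6% (62.2 to 65.0%) of the reads of the miR-193 pair, with exact 95% intervals in brackets. The log2 difference of that ratio was -0.15 (-0.30 to -0.01), beyond counting error but small. Mir365-1 held 48.1% (38.3 to 58.0%) and 57.9% (49.8 to 65.6%) of the reads of the miR-365 pair that could be placed. At that depth a difference between the libraries was not detectable, with a log2 difference of 0.56 and an interval from -0.19 to 1.32.

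The libraries were then set against each other gene by gene. An exact binomial test, two-sided and conditional on each gene's total, was run on the counts with TMM scaling and adjusted by the Benjamini-Hochberg method over 329 genes with at least 10 CPM in either library. This test compares 2 libraries over counting error and no conditions. By this test 74.2% of all tested genes differed, and 37.7% were higher in replicate 2. Among the members, Mir378a and Mir455 were higher in replicate 2, none was lower, and Mir193b and Mir365-1 did not pass. With 2 of 4 called, the members' share was below the background, and with so few genes nothing is read from it. Markers of several cell types also differed between these libraries: the 5 genes listed for leukocytes summed to 2455 and 4308 CPM, and each passed as higher in replicate 2 (median log2 ratio 0.99), Mir155 not with totals as the scale. The 3 listed for red blood cells summed to 653 and 320 CPM, and each passed as lower (median -0.89). The list for smooth muscle and stroma summed to 32040 and 46317 CPM, with 3 of its 5 tested genes passing as higher and the other 2 as lower (median 0.34). Mir199a-2 (26.7 and 16.5 CPM), among the lower, has every mature arm in another hairpin, so its value is uncertain. The part of these cell types in the members' values was not tested.

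Mir378a was higher by a log2 ratio of 0.40 (exact 95% interval 0.39 to 0.41), a factor of 1.32. Mir455 was higher by 0.15 (0.11 to 0.20, adjusted p = 1.13e-12 by the exact test), a factor of 1.11. Mir193b had a log2 ratio of 0.04 (-0.05 to 0.12, adjusted p = 0.436, exact test), an interval of counting error under TMM scaling alone. With DESeq2 size factors the ratio of Mir193b was 0.07, and with totals as the scale its sign turned, at -0.0103. Mir365-1 had 0.23 (-0.28 to 0.76, adjusted p = 0.442, exact test), an interval wide enough to hold the value of Mir378a.

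All 4 members were within 0.40 log2 units of equal levels. The log2 ratios of all tested genes had an SD of 1.01 and a median of -0.01, and 256 of the 329 genes were within 1 log2 unit. Among genes whose mean CPM was within a factor of 2 of Mir193b, the log2 ratios ran from -3.18 to 2.88, and 1 of those 58 genes was closer to 0 than Mir193b. For Mir455, 8 of 39 such genes were closer to 0, and for Mir365-1, 17 of 60. Mir378a had 2 such genes, neither of them closer to 0, and 132 of all 329 tested genes were closer to 0 than Mir378a. The ratio of Mir378a to Mir455 differed between the libraries by 0.24 log2 units (0.20 to 0.29), so these members did not keep a fixed proportion.

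**Figure D4:**
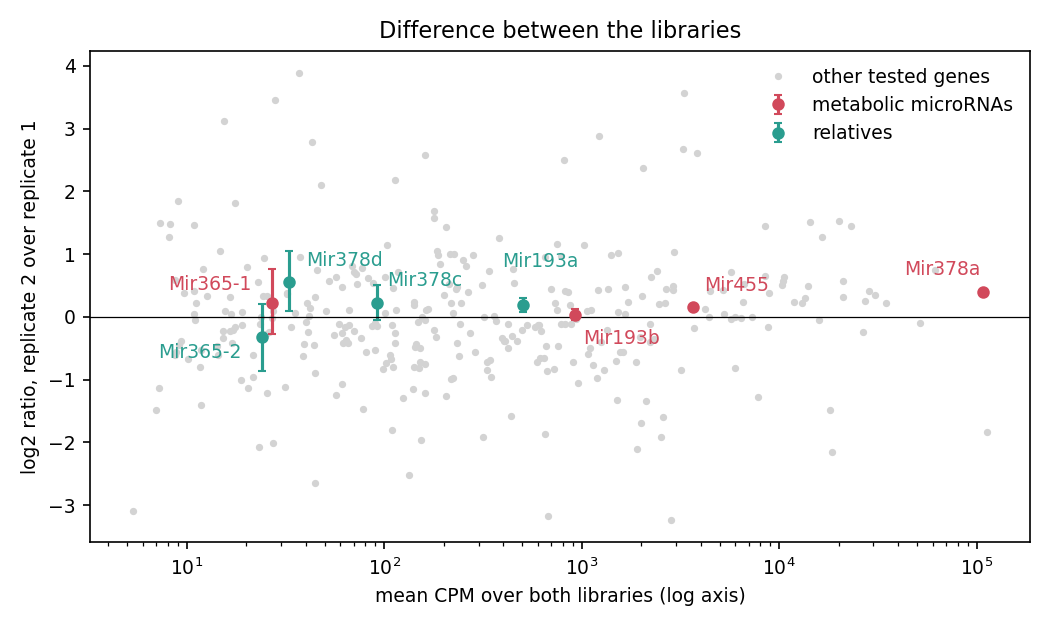
Log2 ratio of replicate 2 over replicate 1 against mean CPM (log axis) for the tested genes. Red points are the metabolic microRNAs, green points their 4 tested relatives and grey points the other genes, with exact 95% intervals of counting error as bars. Mir378a at 0.40 and Mir455 at 0.15 lie above 0 with intervals narrower than their points, Mir193b lies at 0.04, and the interval of Mir365-1 crosses 0.

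Of the 5 relatives, Mir193a (log2 ratio 0.19, adjusted p = 0.00163, exact test) and Mir378d (0.55, adjusted p = 0.0208, exact test) were higher in replicate 2. Mir378c (0.23) and Mir365-2 (-0.32) did not pass, and Mir378b was under the floor in both libraries and was not tested.

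By distance on log2(CPM + 1) over the 2 libraries, Mir296, Mir425 and Mir671 were nearest to Mir193b, the closest at 0.06 log2 units with 961 and 908 CPM. Mir27b, Mir324 and Mir433 were nearest to Mir455, with Mir27b at 3999 and 3430 CPM. Mir212, Mir384 and Mir8114 were nearest to Mir365-1. Mir378a had no close neighbour, since the nearest gene, Mirlet7b, was 1.22 log2 units away at 46728 and 75959 CPM. A likeness over 2 samples says only that the levels were near each other.

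Other microRNAs linked to brown fat behaved unevenly. Of 14 genes tied to its formation, 13 were tested, of which 9 were higher in replicate 2, 2 were lower and 2 did not pass. Among all tested genes, 74.2% passed and 37.7% were higher. The list's median log2 ratio was 0.47, the value of Mir26a-2, against -0.01 over all tested genes. Mir26b was the most abundant of them at 9948 and 23149 CPM (log2 ratio 1.27), Mir328 stood at 1650 CPM in both and passed the test with DESeq2 size factors alone, Mir203, also an epithelial microRNA, stood at 300.0 and 2141 CPM (2.88), and Mir182 at 1313 and 899 CPM (-0.50). With totals as the scale Mir30b (0.17) lost its call. Mir26a-1 (3.95 and 70.1 CPM) and Mir129-1 (12.8 and 7.48 CPM) passed the floor through 1 library, which fixed their direction. Mir26a-1, Mir26a-2, Mir30c-1, Mir30c-2 and Mir196a-2, all among the 9 called higher, are numbered copies whose values are uncertain. The same holds for Mir129-2, called lower, and for Mir129-1. Nothing is therefore read from the tally or the median.

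Among 11 microRNAs that restrain brown fat formation, 9 were tested. Of these, 3 were higher in replicate 2, 5 were lower and 1 did not pass (median log2 ratio -0.14). Among all tested genes, 74.2% passed and 37.7% were higher. Mir93 was the highest of the list at 4399 and 7008 CPM (0.72). Mir27b (-0.17), Mir34a at 888 and 625 CPM (-0.46) and Mir27a at 636 and 559 CPM (-0.14) were lower in replicate 2. Mir133b (17.8 and 5.92 CPM, -1.40) reached 10 CPM in replicate 1 only, so its direction was fixed. Mir133a-1 had a single count in replicate 1 and Mir133a-2 had none in either library, but numbered copies lose the reads they share, so this sets no limit on miR-133a. With DESeq2 size factors Mir27a kept its direction (-0.10) and lost its call. With totals as the scale Mir155 (0.18) lost its call and Mir125b-1 (-0.16) passed as lower.

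Of 11 genes of lipid and mitochondrial metabolism with a row in the tables, 9 were tested. Of these, 3 were higher, 4 were lower and 2 did not pass (median log2 ratio -0.42). Among all tested genes, 74.2% passed and 37.7% were higher. Of the 4 lower, Mir208b (38.5 and 8.10 CPM) reached 10 CPM in replicate 1 only, which fixed its direction. Mir208b and Mir499 (78.1 and 11.2 CPM) are also striated muscle genes, counted again below. Mir103-2 (34.6 and 57.0 CPM), among the 3 higher, is a numbered copy that shares an arm, so its value is uncertain. Mir107, which lies in a pantothenate kinase gene, stood at 1959 and 3883 CPM (1.04), and Mir370 at 260 and 418 CPM (0.73). Mir181c, which has been linked to mitochondria, stood at 1865 and 1106 CPM (-0.71). Mir122, the main hepatocyte microRNA, stood at 26733 and 9284 CPM (-1.48). Mir210, induced by low oxygen, stood at 134 and 148 CPM and Mir33, which lies in a sterol regulator gene, at 19.8 and 14.0 CPM, and neither passed the test.

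Mir378a is also abundant in striated muscle, so muscle microRNAs were read beside it. Of 9 genes in that list, 4 were tested, all 4 were lower in replicate 2, and the list summed to 11315 and 4508 CPM. Mir206 made up nearly all of that sum, at 11177 and 4480 CPM, and Mir1a-1 and Mir133a-2 were listed at 0 in both libraries. Both are numbered copies, which lose the reads they share, so neither these values nor the sum limits the amount of muscle RNA. Of the 4 tested genes, Mir208b (38.5 and 8.10 CPM) and Mir133b were above 10 CPM in replicate 1 only, which fixed their direction. Over all tested genes, 120 of 329 were lower. The part of muscle RNA in the level of Mir378a was not tested.

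Of 4 microRNAs often measured in white fat, 3 were higher in replicate 2 and 1 was lower, with a summed level of 44549 and 50123 CPM. Mir143 (27532 and 33734 CPM), which is also a smooth muscle gene, and Mir221 (454 and 849 CPM) were among the higher and Mir335 (16496 and 15441 CPM, log2 ratio -0.05) was the lower, a call lost with DESeq2 size factors. Of 5 neuroendocrine genes, Mir375 was higher (0.41), 3 were lower, of which Mir137 and Mir7-2 lost their calls with DESeq2 size factors, and 1 did not pass, with a summed level of 28211 and 34978 CPM. Mir7-1 and Mir7-2 are numbered copies that share an arm, so their values are uncertain. Since 74.2% of all tested genes passed and 37.7% were higher, nothing is read from the tallies of these short lists. The contributions of cortex, medulla and surrounding fat to the members' reads were not tested. No list here separates cortex or brown fat from the other cells.

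**Figure D5:**
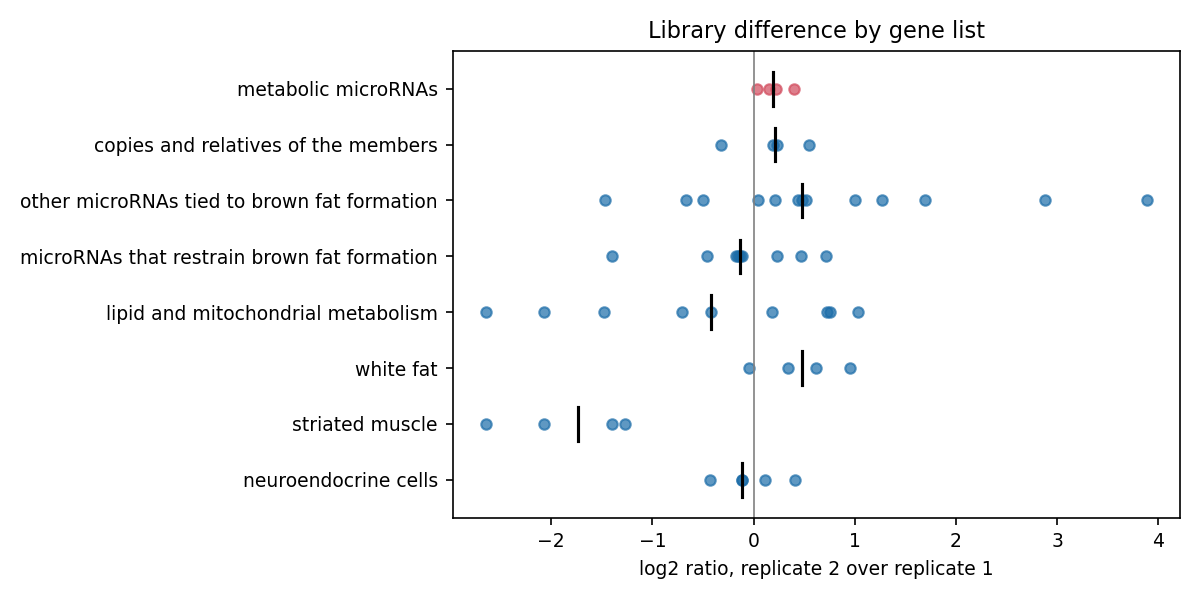
Log2 ratio of replicate 2 over replicate 1 for the tested genes of 8 gene lists, with 1 point per gene and a black bar at each list's median. The 4 metabolic microRNAs (red) lie between 0.04 and 0.40, while the genes tied to brown fat formation run from -1.47 to 3.89 and the 4 striated muscle genes all lie below -1.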

How the data were processed

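The authors deposited raw read counts per microRNA gene for each library, on mm10 with GENCODE M21, per the text deposited with the files. Which aligner and counter were used is not given in the sources at hand. Of 3 count columns, by their values irrespective of strand, sense and opposite, the sense column was used. Lines that name no gene stayed out of totals: unmapped reads were 28.1% and 26.4% of each library, those with several alignments 25.0% and 27.2%, and those outside microRNA genes 8.55% and 8.86%. Losses of reads that carry CAST/EiJ variants were not tested.

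All 2202 identifiers matched M21. CPM used the assigned sense-strand reads. TMM factors came from edgeR 4.0.16, and size factors from DESeq2 1.42.0 were an alternative. With 1 group no contrast exists for edgeR's quasi-likelihood test, so the libraries were compared by the exact conditional binomial test at an adjusted p below 0.05. The test was also run on simulated counts with counting error only and unscaled totals, which says nothing of variation between animals. Log2 ratios carry a pseudocount of 1 CPM and so understate differences at low levels; intervals are exact at 95% and without it. Intervals cover counting error only. A chi-square between the libraries was 510405 on 437 degrees of freedom, computed on raw counts of genes above a small minimum. It treats reads as independent, so it measures departure from counting error and says nothing of variation between animals. Calculations ran in R 4.3.3 and Python 3.11.15 with SciPy 1.17.1.

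The members, lists and tests were chosen with earlier results of these data known. Named genes were the members, their relatives and overlapping genes, up to 4 genes of highest mean CPM per list, and the 3 nearest genes per member. Others, such as Mir5129, Mir26a-1, Mir133a-1, Mir30b, Mir125b-1, Mir7-2, Mir210 and Mir33, were named after their values were seen.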

Additional observations from a re-analysis of the deposited data

How the results depend on the processing

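The mean level of Mir378a, 107630 CPM, became 63588 with multiply aligned reads in the denominator, 40758 over all reads and 0 irrespective of strand, where its reads were ambiguous with those of Gm25301. Under the same 2 denominators Mir455 stood at 2178 and 1395 CPM, Mir193b at 546 and 349, and Mir365-1 at 15.9 and 10.2. Without Mir126a in the denominator Mir455 stood at 4159, Mir193b at 1044 and Mir365-1 at 30.4 CPM, and irrespective of strand at 4966, 1247 and 36.3, in each case because the denominator differs. With 2 libraries, leaving out either gives the other's level, printed above, and says nothing of stability. The log2 ratio of Mir193b turned from 0.04 to -0.0103 with totals as the scale and did not pass under either. For the other 3 members, direction and call held with DESeq2 size factors, totals, TMM without Mir126a, pseudocounts of 0.5 and 5 CPM and, for Mir455 and Mir365-1, counts irrespective of strand; Mir378a has no value there. Of the 61 tested genes on the lists, 1, Mir193b, turned in sign with another scaling and 8 changed their call. The 244 genes called, 74.2% of those tested, ranged from 195 at a floor of 100 CPM to 262 at 1 CPM. These were 89.9% of 217 and 48.6% of 539 tested genes. With no floor 247 of 790 (31.3%) were called, so the background share depends on the floor. The ratio of Mir193b to Mir365-1 did not depend on the strand column. No paired analysis was possible because there is 1 group, and leaving out a library leaves no comparison between libraries. Depth limits Mir365-1, at 51 and 92 counts.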

Other observations

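The counts of genes found to share a mature arm with another gene can be set beside that of Mir365-1. Among 954 microRNA genes with a hairpin and a mature sequence in the RefSeq table, chromosome 18 left out, 54 had 1 arm that also occurs in the hairpin of another gene, as Mir365-1 does. Over all 54 the median of the mean CPM was 27.1, 32 (59.3%) reached 10 CPM in both libraries, and 3 had a mean of at least 1000 CPM. The highest was Mir92-1 at 2215 CPM. Every listed arm occurred in another hairpin for 38 genes, whose median was 0 CPM and of which 5 reached 10 CPM in both libraries and none had a mean of 1000 CPM, with Mirlet7c-2 the highest at 699 CPM. For 862 genes no arm was found in another hairpin, and a gene whose only match lies on chromosome 18 is counted among them. Over all of those the median was 0.559 CPM, 223 (25.9%) reached 10 CPM in both, and 75 had a mean of at least 1000 CPM. These are descriptions of how the counts fall, and the genes of a class differ in more than their copies.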
